A study of Homo sapiens with 12 samples.

Results

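The 38 protein-coding genes of human integrin and laminin chains were compared between 4 groups of WI-38 libraries. They were chosen by gene symbol, as every gene named as an integrin alpha chain (18 genes), an integrin beta chain (8 genes) or a laminin alpha, beta or gamma chain (12 genes), out of 57773 genes in the count files, of which 21518 passed a filter on low counts and were tested. Of the 38, 36 passed that filter. ITGAM, with at most 17 counts in a library, and ITGAD, with at most 4, did not pass and were not tested. WI-38 is a line of human diploid lung fibroblasts. All cells were kept in culture for 8 days and transfected with a pool of siRNAs at 25 nM. Proliferating cells received the vehicle DMSO and a control siRNA (siCtrl). Senescent cells received etoposide (50 µM), which damages DNA by trapping topoisomerase on it, and either siCtrl, siRNA against NTRK2 mRNA (siNTRK2), which encodes the receptor TrkB, or siRNA against BDNF mRNA (siBDNF), which encodes its ligand. Each group had 3 libraries, each target was silenced with 1 siRNA pool, and the labels do not say whether libraries of a group came from separate cultures. The study states in general that its experiments were repeated independently, without naming these libraries, so the p-values below measure the spread between libraries, which may be technical. The study asked how BDNF and TrkB act on senescent cells, and the question here is how the mRNAs for cell-matrix adhesion differed between the groups.

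Integrins are surface receptors made of an alpha and a beta chain, and the pairing decides whether a cell binds laminin, collagen or ligands with the RGD tripeptide such as fibronectin and vitronectin. Laminins are secreted trimers of an alpha, a beta and a gamma chain, and they form the polymer on which a basement membrane is built together with type IV collagen, nidogens and perlecan. Fibroblasts attach to matrix mainly through integrins that contain the beta 1 chain, and LAMA3 and LAMB3 encode laminin chains best known from the epithelium of skin.

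On hg19, the build of the counts, LAMA3 lies at chr18:21269417-21536186 (plus strand, 74 introns) and LAMB3 at chr1:209788215-209825770 (minus strand, 22 introns). ITGA5 lies at chr12:54789045-54813050 (minus strand, 29 introns) and ITGA11 at chr15:68588870-68724502 (minus strand, 29 introns). Promoter sequences from RefSeq (GRCh38.p14, while the counts were made on hg19) were matched by symbol to 26 of the 38 genes. LAMA3, LAMB3 and ITGA5 are shown because the letters searched were found in a window of these genes and of no other member, a choice made after the search. LAMA3 and LAMB3 were higher in senescent cells and ITGA5 was not called there, while ITGA2, ITGA6 and LAMA4 were higher and had windows without these letters. Each window runs 5′ to 3′ from 250 bases before to 50 bases after an annotated start, and capitals mark the letters TGANTCA, a binding motif of AP-1 factors, searched on both strands.
LAMA3, chr18:23872770-23873069, plus strand: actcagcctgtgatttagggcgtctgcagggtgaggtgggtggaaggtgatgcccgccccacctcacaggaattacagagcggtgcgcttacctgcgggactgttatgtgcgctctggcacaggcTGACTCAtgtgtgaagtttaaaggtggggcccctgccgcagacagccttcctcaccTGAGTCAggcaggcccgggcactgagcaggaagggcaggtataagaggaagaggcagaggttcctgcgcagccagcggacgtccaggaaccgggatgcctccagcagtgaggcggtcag
LAMB3, first of 3 listed starts, chr1:209651325-209651624, minus strand: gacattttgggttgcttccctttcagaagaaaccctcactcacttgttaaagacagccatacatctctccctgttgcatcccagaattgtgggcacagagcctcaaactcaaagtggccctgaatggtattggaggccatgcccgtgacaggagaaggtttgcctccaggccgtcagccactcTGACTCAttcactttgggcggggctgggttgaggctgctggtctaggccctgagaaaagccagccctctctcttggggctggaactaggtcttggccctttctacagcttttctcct
ITGA5, chr12:54419217-54419516, minus strand: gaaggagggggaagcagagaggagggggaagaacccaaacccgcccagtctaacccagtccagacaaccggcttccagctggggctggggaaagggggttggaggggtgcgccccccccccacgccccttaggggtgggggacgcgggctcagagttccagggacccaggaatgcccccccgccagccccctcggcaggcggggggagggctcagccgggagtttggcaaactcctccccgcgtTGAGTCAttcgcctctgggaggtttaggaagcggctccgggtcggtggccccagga
The motif began 125 and 69 bases before the start in the LAMA3 window, 67 bases before it in the LAMB3 window and 6 bases before it in the ITGA5 window. The other windows of LAMB3 did not hold these letters. TGANTCA was found in 3 of 33 windows of the 26 genes (9.09%) and in 7.71% of all 35116 windows in the table. GGGCGG, the GC box, was found in 19 of the 33 windows (57.58%) against 44.95% of all windows, and TATAAA, the TATA box, in 2 of them (6.06%) against 11.53%. A match is a description of the letters in the window and does not show that a factor binds there.

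Total counts lay between 31567912 and 72328151 per library, and 3 counts, taken as the smallest detectable signal, equalled 0.0427 to 0.0916 CPM (counts per 1e+06 counts in genes, with library sizes scaled by TMM), for counting error only. NTRK2 counts were 11, 1 and 1 in proliferating cells, 7, 15 and 10 in siCtrl senescent cells, 0, 0 and 0 with siNTRK2 and 10, 23 and 29 with siBDNF, so that the labels could be checked only near this limit. BDNF mRNA was measured at 161, 157 and 169 CPM in siCtrl senescent cells and at 48.1, 48.9 and 44.3 CPM with siBDNF, with no overlap. The summed level of 9 fibroblast markers was 32175 to 34101 CPM in proliferating, 23208 to 25006 CPM in siCtrl senescent, 27213 to 30122 CPM in siNTRK2 and 23991 to 24559 CPM in siBDNF cells, and all 9 were well above the detection limit. Of the 9, 7 were lower and 1 higher in senescent cells (39.5% and 31.9% of genes over 10 CPM), 5 were higher and 1 lower with siNTRK2 (18.3% and 17.1%), and 6 were lower and 1 higher with siBDNF (18.7% and 17.4%), with medians of -0.65, 0.28 and -0.17. For siNTRK2 against siBDNF, 8 were higher and 0 lower (14.4% and 11.8%), with a median of 0.29. The senescence markers CDKN1A, CDKN2A and GDF15 summed to 979 to 1038 CPM in proliferating, 3020 to 3210 CPM in siCtrl senescent, 2116 to 2281 CPM in siNTRK2 and 3005 to 3119 CPM in siBDNF cells. CDKN1A (-0.50) and GDF15 (-0.62) were called lower and CDKN2A (0.21) higher with siNTRK2, and none of the 3 was called with siBDNF. The summed level of 4 proliferation markers was 222 to 236 CPM in proliferating cells, 26.0 to 27.6 CPM in siCtrl senescent cells, 49.1 to 50.0 CPM with siNTRK2 and 27.9 to 29.2 CPM with siBDNF. The part of these markers in the differences between members was not tested. In bulk RNA, fewer cells of a type and less RNA per cell cannot be told apart.

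ITGB1, the beta chain shared by most matrix-binding integrins of fibroblasts, was by far the most abundant member per length. On the scale of CPM per kb of transcript, its level was 709 ± 41.3 in proliferating and 717 ± 63.3 in siCtrl senescent cells (mean ± SD, n = 3), which was 91.7% and 88.6% of the summed level of the 8 beta chains. ITGA5, the alpha chain of the main fibronectin receptor, followed with 203 ± 6.11 CPM per kb in siCtrl senescent cells, ahead of LAMC1 (98.5 ± 6.22), ITGB5 (86.9 ± 2.71), LAMB1 (67.4 ± 4.05), ITGA3 (56.1 ± 1.15), LAMB2 (47.4 ± 3.58), ITGA2 (39.5 ± 3.08), LAMA4 (27.7 ± 2.96), ITGA6 (24.5 ± 0.621) and ITGAV (18.4 ± 1.24). These 11 genes kept that order in all 3 siCtrl senescent libraries. Further down, LAMB3 and ITGA1 overlapped, as did ITGB3 and LAMA5, and the neighbours from ITGA4 through LAMA1 and LAMA2 to ITGA11. In proliferating cells LAMB1 ranked above ITGA3 and ITGB5, which overlapped each other, and ITGAV ranked above ITGA2, LAMA4 and ITGA6. LAMA4, the alpha chain of laminins of mesenchymal and vascular tissue, made up 70.4% of the summed laminin alpha chains per kb in proliferating cells, 74.0% in siCtrl senescent cells, 76.8% with siNTRK2 and 77.8% with siBDNF.

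**Figure D1:**
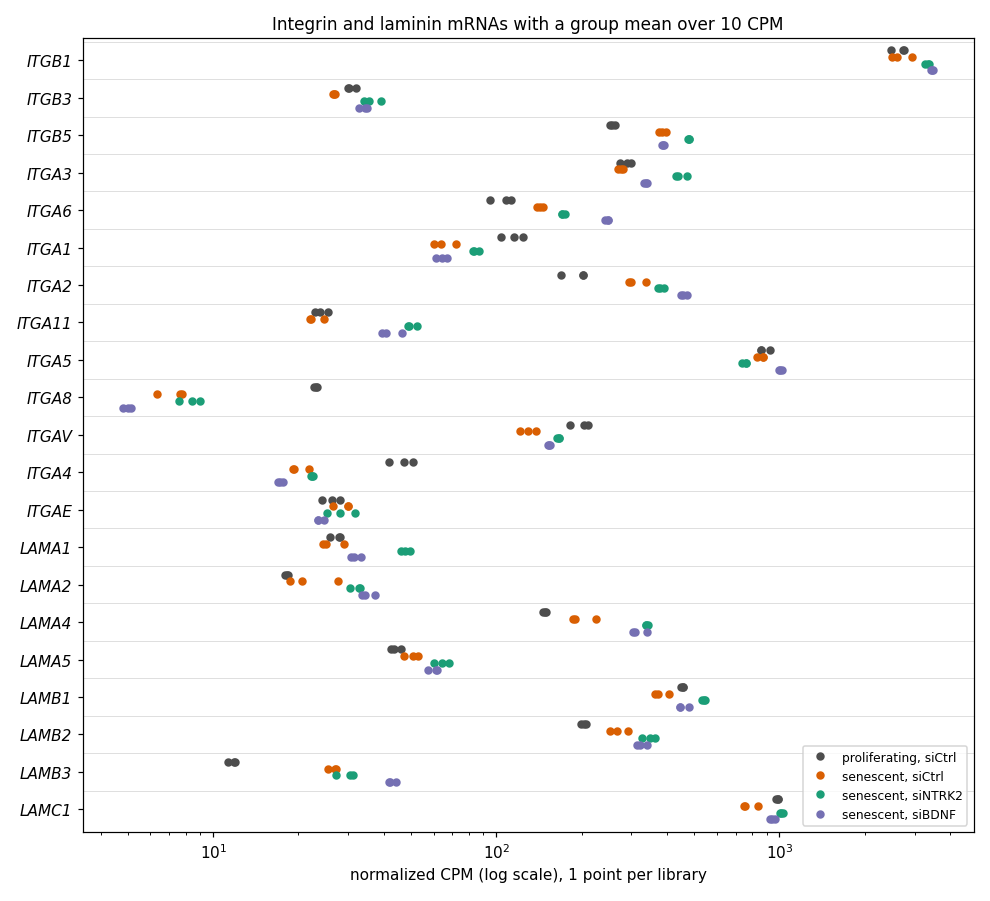
Normalized CPM (log scale) of the 21 members with a group mean over 10 CPM, with 1 point per library and 1 colour per group, 3 libraries each. ITGB1 lies between 2471 and 3486 CPM over all libraries, and the groups of ITGA4, ITGA8 and LAMB3 in proliferating cells stand apart from all senescent libraries.

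Senescent and proliferating cells with siCtrl differed in 25 of the 36 tested members, at an adjusted p under 0.05 in edgeR's quasi-likelihood test. In this comparison 58.1% of all tested genes were called. Of the 25, 17 were higher in senescent cells (29.8% of all genes were) and 8 were lower (28.3% of all genes). The median log2 fold change of the 36 was 0.26, against 0.02 for all tested genes, and 12 of the 25 changed by more than 1 on the log2 scale, a size reached by 16.7% of all genes. Of these 12, 9 were higher (11.6% of all genes) and 3 were lower (5.16%). Among the 9, ITGAL, ITGB2, ITGB6 and LAMC3 had under 10 counts in every proliferating library and passed the low-count filter through the senescent groups. ITGB4, with 20, 12 and 11 counts in proliferating libraries, also passed it only with libraries of the senescent groups. The calls of all these genes in this comparison are therefore not independent of the filter. Most of the members that were higher by more than 1 had low levels: among the 21 members with a mean over 10 CPM in a group, 8 were higher, 7 were lower and 6 were not called, while 31.9% and 39.5% of all genes with a mean over 10 CPM were higher and lower. The levels of the 3 libraries of each group did not overlap for 25 members, as for 61.3% of all genes.

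Silencing NTRK2 or BDNF in senescent cells went with higher levels of most abundant members. With siNTRK2, 18 of the 36 were called against siCtrl, where 21.1% of all genes were: 16 were higher (11.1% of all genes) and 2, ITGA5 and ITGA7, were lower (10.0%). With siBDNF, 20 were called, where 20.5% of all genes were: 17 were higher (10.3%) and 3, ITGA4, ITGA8 and ITGAE, were lower (10.2%). When single libraries were left out, 1 to 2 members were called lower with siBDNF. The median log2 fold change was 0.28 with siNTRK2 and 0.27 with siBDNF, against 0.00 for all genes in both. Among the 21 members over 10 CPM in a group, 16 were higher with siNTRK2 and 16 with siBDNF, while 18.3% and 17.4% of all genes with a mean over 10 CPM were higher. In the same class 1 was lower with siNTRK2 and 3 with siBDNF, against 17.1% and 18.7% of genes. These differences were small. ITGA11 with siNTRK2 was the sole called change of more than 1 on the log2 scale, a size reached by 0.957% of all genes with siNTRK2 (0.390% higher, 0.567% lower) and by 0.609% with siBDNF (0.372% higher, 0.237% lower). The libraries did not overlap for 23 members with siNTRK2 and 24 with siBDNF, as for 32.8% and 37.3% of all genes. Both comparisons use the same 3 control libraries, so that their values are given side by side and not as support for each other.

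The direct comparison of siNTRK2 with siBDNF, which uses no control library, called 16 members, where 16.7% of all genes were called. Of these, 9 were higher with siNTRK2 (8.84% of all genes) and 7 were higher with siBDNF (7.86%), the median over the 36 was 0.10 against 0.00 for all genes, and ITGAL, lower with siNTRK2, was the sole member to differ by more than 1 (1.16% of all genes did, 0.335% higher and 0.827% lower). Of the 21 members over 10 CPM in a group, 9 were higher and 4 lower, against 14.4% and 11.8% of such genes. The libraries did not overlap for 22 members, as for 34.2% of all genes.

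**Figure D2:**
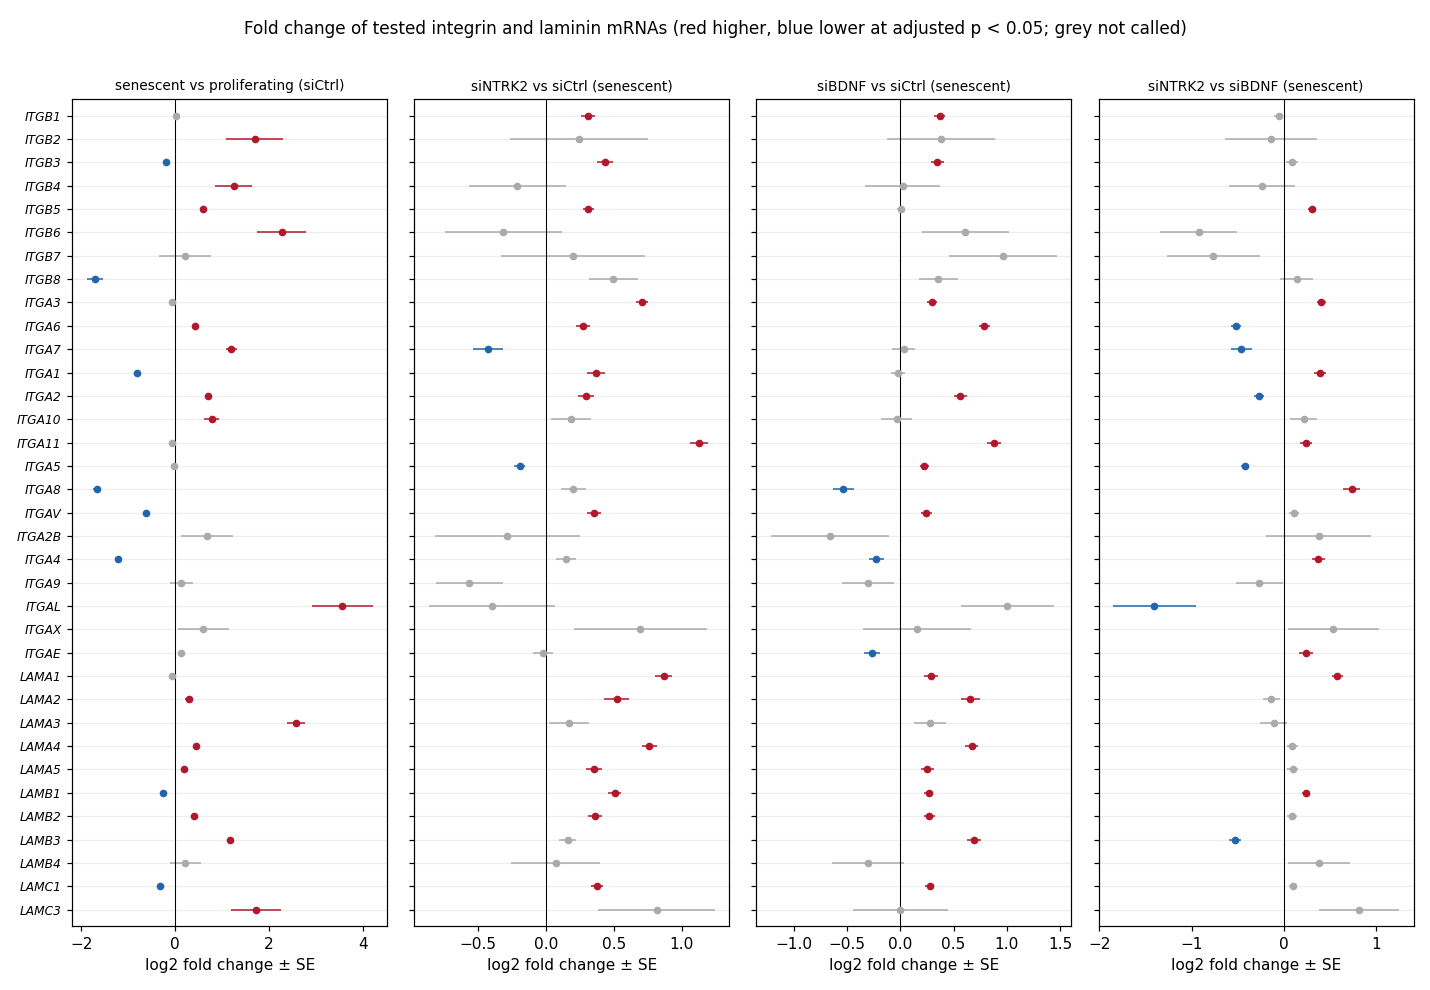
Log2 fold change ± SE of tested members (rows, ordered by role) in the 4 comparisons (panels, each with its own scale), red for members that were higher, blue for those that were lower and grey for those that were not called. In the siNTRK2 and siBDNF panels most called points lie between 0 and 1, and in the panel of senescent against proliferating cells they reach from -1.71 to 3.56.

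Of the 8 beta chains, ITGB1 was measured at 2730, 2745 and 2471 CPM in proliferating cells, 2495, 2945 and 2594 CPM in siCtrl senescent cells, 3266, 3341 and 3364 CPM with siNTRK2 and 3433, 3486 and 3446 CPM with siBDNF. Levels in proliferating and siCtrl senescent cells overlapped, and all libraries with either siRNA lay above all siCtrl senescent libraries. ITGB1 mRNA differed by 0.02 ± 0.05 between senescent and proliferating cells and was not called, while it was higher by 0.31 ± 0.05 with siNTRK2 and by 0.37 ± 0.05 (SE, adjusted p = 1.0e-05) with siBDNF. ITGB5, which pairs with the alpha V chain to bind vitronectin, was measured at 256, 252 and 263 CPM in proliferating cells, 375, 399 and 383 CPM in siCtrl senescent cells, 479, 480.0 and 475 CPM with siNTRK2 and 386, 383 and 392 CPM with siBDNF. It stood apart between proliferating and siCtrl senescent cells, rose again with siNTRK2, and overlapped with siCtrl when BDNF was silenced. The log2 difference was 0.58 ± 0.04 in senescent cells, 0.31 ± 0.04 with siNTRK2 and 0.01 ± 0.04 with siBDNF, the last of which was not called, and siNTRK2 exceeded siBDNF by 0.30 ± 0.04 (SE, adjusted p = 4.9e-06). ITGB8, whose product with alpha V activates latent TGF-beta, was lower in senescent cells, at 2.35, 2.48 and 1.42 CPM against 7.61, 7.08 and 5.71 CPM, with a log2 difference of -1.71 ± 0.17 (SE, adjusted p = 4.6e-09), and was called with neither siRNA. ITGB3 was lower in senescent cells and higher with both siRNAs, by 0.44 ± 0.06 (SE, adjusted p = 9.7e-06) and 0.35 ± 0.06 (SE, adjusted p = 1.9e-04), but 33.18% of its exon bases lie in another gene model on the same strand (ENSG00000259753) whose counts moved with it, so its counts are uncertain. ITGB7, which shares 42.26% of its exon bases with ZNF740 on the opposite strand, stayed under 0.5 CPM and was not called.

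Among the chains that pair with beta 1 or beta 4 to bind laminin, ITGA3 was measured at 289, 274 and 300.1 CPM in proliferating cells, 279, 275 and 268 CPM in siCtrl senescent cells, 470.1, 432 and 439 CPM with siNTRK2 and 333, 337 and 339.8 CPM with siBDNF. It did not separate senescent from proliferating cells, and it was highest with siNTRK2, where no library overlapped with any other group. The difference to siCtrl was 0.70 ± 0.04 (SE, adjusted p = 4.2e-11) with siNTRK2 and 0.30 ± 0.04 (SE, adjusted p = 3.1e-05) with siBDNF, and siNTRK2 exceeded siBDNF by 0.41 ± 0.04 (SE, adjusted p = 2.3e-07). ITGA6 showed the other order, at 108, 113 and 95.1 CPM in proliferating cells, 139, 146 and 142 CPM in siCtrl senescent cells, 171, 170.1 and 175 CPM with siNTRK2 and 242, 249 and 249 CPM with siBDNF. Every group stood apart from every other, with siBDNF highest. ITGA6 was higher by 0.43 ± 0.05 in senescent cells, by 0.27 ± 0.05 with siNTRK2 and by 0.79 ± 0.05 (SE, adjusted p = 6.7e-11) with siBDNF, and the difference of siNTRK2 to siBDNF was -0.52 ± 0.05 (SE, adjusted p = 3.7e-08). ITGA7, the laminin receptor chain of muscle, was measured at 3.77, 3.22 and 3.41 CPM in proliferating cells, 8.50, 8.58 and 6.73 CPM in siCtrl senescent cells, 5.59, 5.52 and 6.54 CPM with siNTRK2 and 8.49, 8.02 and 7.86 CPM with siBDNF. It was higher in all senescent libraries than in proliferating ones and lowest among senescent cells with siNTRK2. The log2 difference was 1.20 ± 0.12 (SE, adjusted p = 2.8e-09) in senescent cells, -0.43 ± 0.11 (SE, adjusted p = 0.006) with siNTRK2 and -0.46 ± 0.11 (SE, adjusted p = 0.0045) for siNTRK2 against siBDNF. For 3 muscle markers the summed level was 5.01 to 6.32 CPM in proliferating, 4.47 to 5.24 CPM in siCtrl senescent, 3.65 to 5.04 CPM in siNTRK2 and 5.49 to 6.07 CPM in siBDNF cells, with MYOD1 at no more than 4 counts in any library. Of the 2 tested, MYH11 was lower for siNTRK2 against siBDNF (-0.49, called), the direction of ITGA7, and neither was called in the other comparisons. The part of these markers in the result was not tested.

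Of the collagen-binding chains, ITGA1 and ITGA2 moved in opposite directions with senescence. ITGA1 was measured at 124, 115 and 104 CPM in proliferating cells, 63.8, 72.03 and 60.1 CPM in siCtrl senescent cells, 82.9, 86.6 and 83.4 CPM with siNTRK2 and 61.4, 67.01 and 64.1 CPM with siBDNF. Proliferating libraries were highest, siNTRK2 libraries lay between them and siCtrl senescent libraries, and siBDNF overlapped with siCtrl. ITGA1 fell by 0.81 ± 0.06 on the log2 scale in senescent cells, was higher by 0.37 ± 0.06 (SE, adjusted p = 1.4e-04) with siNTRK2 and was not called with siBDNF (-0.02 ± 0.06), and siNTRK2 exceeded siBDNF by 0.39 ± 0.06 (SE, adjusted p = 7.5e-05). ITGA2 was measured at 202, 202 and 169 CPM in proliferating cells, 294, 338 and 299 CPM in siCtrl senescent cells, 373, 389.6 and 379 CPM with siNTRK2 and 449, 470.0 and 456 CPM with siBDNF. The 4 groups did not overlap and rose in the order in which they are given. ITGA2 was higher by 0.70 ± 0.06 in senescent cells, by 0.30 ± 0.06 with siNTRK2 and by 0.56 ± 0.06 (SE, adjusted p = 1.4e-07) with siBDNF. ITGA11, a receptor chain for fibrillar collagen in fibroblasts, was measured at 23.7, 22.8 and 25.5 CPM in proliferating cells, 22.1, 24.6 and 22.2 CPM in siCtrl senescent cells, 52.4, 48.8 and 49.1 CPM with siNTRK2 and 40.7, 46.3 and 39.5 CPM with siBDNF. Proliferating and siCtrl senescent cells overlapped, and every library with siNTRK2 or siBDNF lay above both. ITGA11 had the largest called change of all members with either siRNA, 1.13 ± 0.07 (SE, adjusted p = 1.2e-11) with siNTRK2 and 0.88 ± 0.07 (SE, adjusted p = 1.3e-09) with siBDNF. The difference between the siRNAs, 0.25 ± 0.07, was called, but not without siBDNF replicate 3 (0.20, adjusted p = 0.091). ITGA10, a chain of cartilage, was higher in senescent cells (0.78 ± 0.15), at 4.38 ± 0.315 CPM against 2.54 ± 0.368 CPM, and was not called with either siRNA.

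Among the chains that bind RGD ligands, ITGA5 was measured at 859, 858 and 925 CPM in proliferating cells, 876, 831 and 875 CPM in siCtrl senescent cells, 759, 760.0 and 738 CPM with siNTRK2 and 994, 1005 and 1020 CPM with siBDNF. Proliferating and siCtrl senescent cells overlapped, all siNTRK2 libraries lay below them and all siBDNF libraries above. ITGA5 fell by 0.19 ± 0.04 on the log2 scale with siNTRK2 and was higher by 0.23 ± 0.04 with siBDNF, both called, and the direct difference of siNTRK2 to siBDNF was -0.42 ± 0.04 (SE, adjusted p = 5.3e-08). ITGA5 was the sole member called in opposite directions with the 2 siRNAs. ITGAV, which pairs with several beta chains, was measured at 211, 204 and 182 CPM in proliferating cells, 121, 138 and 129.8 CPM in siCtrl senescent cells, 166, 166 and 164 CPM with siNTRK2 and 152, 155 and 153 CPM with siBDNF. Proliferating libraries were above all others, and siCtrl senescent libraries were below all others. ITGAV fell by 0.62 ± 0.05 in senescent cells and was higher by 0.35 ± 0.05 (SE, adjusted p = 2.7e-05) with siNTRK2 and by 0.24 ± 0.05 with siBDNF, the last of which was 0.06 (adjusted p = 0.24) after a correction for trends in transcript length and GC content. ITGA8, whose product with beta 1 binds nephronectin, was measured at 22.6, 23.3 and 23.03 CPM in proliferating cells, 7.77, 6.31 and 7.62 CPM in siCtrl senescent cells, 8.39, 8.95 and 7.58 CPM with siNTRK2 and 5.01, 4.82 and 5.14 CPM with siBDNF. Proliferating libraries were well above all senescent ones and siBDNF libraries were below all others. The log2 difference was -1.67 ± 0.09 (SE, adjusted p = 2.3e-14) in senescent cells, -0.54 ± 0.10 (SE, adjusted p = 2.5e-04) with siBDNF and 0.74 ± 0.10 (SE, adjusted p = 3.7e-06) for siNTRK2 against siBDNF. ITGA2B, the platelet chain, had no more than 0.3 CPM in any library and was not called.

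ITGA4, whose product binds VCAM1 and fibronectin, was measured at 50.7, 47.4 and 41.7 CPM in proliferating cells, 19.4, 21.8 and 19.1 CPM in siCtrl senescent cells, 22.5, 22.3 and 22.1 CPM with siNTRK2 and 17.6, 17.2 and 16.9 CPM with siBDNF. Proliferating libraries were above all others, and siBDNF libraries were below all others. ITGA4 fell by 1.21 ± 0.07 (SE, adjusted p = 1.2e-13) in senescent cells, and siNTRK2 exceeded siBDNF by 0.37 ± 0.07 (SE, adjusted p = 5.6e-04). The difference of siBDNF to siCtrl (-0.23 ± 0.07) was called, but not when library totals replaced the scaling (-0.17, adjusted p = 0.14) or without any one of 4 libraries, siCtrl senescent replicate 2 (-0.16) and siBDNF replicates 1 (-0.24), 2 (-0.22) and 3 (-0.21). CERKL on the opposite strand shares 26.4% of its exon bases and its mean fell from 7.70 CPM in proliferating to 3.89 CPM in siCtrl senescent cells. ITGA9, a related chain, stayed between 0.689 and 1.25 CPM and was not called.

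The alpha chains of leukocytes were near the detection limit, except ITGAE. ITGAE, whose product binds E-cadherin, was measured at 24.3, 28.1 and 26.2 CPM in proliferating cells, 29.8, 26.5 and 29.8 CPM in siCtrl senescent cells, 27.96, 31.6 and 25.3 CPM with siNTRK2 and 23.5, 23.4 and 24.6 CPM with siBDNF. The siBDNF libraries were below all other senescent libraries, and the other groups overlapped. ITGAE fell by 0.27 ± 0.08 on the log2 scale with siBDNF, siNTRK2 exceeded siBDNF by 0.25 ± 0.08, and both calls were lost without single libraries, the second also when library totals replaced the scaling (0.21, adjusted p = 0.060): the first without siCtrl senescent replicate 1 (-0.24) or 3 (-0.24) or siBDNF replicate 2 (-0.25), the second without siNTRK2 replicate 2 (0.17) or siBDNF replicate 1 (0.24), 2 (0.24) or 3 (0.27). ITGAL had 1, 4 and 0 counts in proliferating libraries, 23, 20 and 22 in siCtrl senescent libraries, 23, 7 and 18 with siNTRK2 and 31, 44 and 49 with siBDNF. The senescent libraries were all above the proliferating ones, with a fitted log2 difference of 3.56 ± 0.65. Without proliferating replicate 2, which held 4 of the 5 counts of its group, the fitted difference was 4.86. ITGAL passed the low-count filter through the senescent groups, so no p-value is given for this difference. The difference of siNTRK2 to siBDNF (-1.40 ± 0.45 (SE, adjusted p = 0.033)) was not called without siNTRK2 replicate 2 (-1.09) or without siBDNF replicate 1 (-1.24), 2 (-1.51) or 3 (-1.46). ITGB2, the beta chain that pairs with the products of ITGAL, ITGAM, ITGAX and ITGAD, had 3, 3 and 9 counts in proliferating and 14, 23 and 19 counts in siCtrl senescent libraries (1.70 ± 0.61). The call was lost without proliferating replicate 1 (1.36) or 2 (1.22) or siCtrl senescent replicate 2 (1.51), and the value was 2.71 without proliferating replicate 3. ITGB2 also passed the low-count filter through the senescent groups, so no p-value is given for it. ITGAX was not called. ITGAM had 0 counts in each proliferating library and 3, 17 and 2 in siCtrl senescent libraries, and ITGAD had 0 in both groups. The summed level of 5 leukocyte markers was 0.157 to 0.215 CPM in proliferating cells, with PTPRC, CD3E and LYZ at 0 counts, 1.70 to 1.93 CPM in siCtrl senescent cells, 1.26 to 1.55 CPM with siNTRK2 and 2.11 to 2.19 CPM with siBDNF. These markers were in the same order over the groups as ITGAL, and their part in the result was not tested.

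Of the 12 laminin chains, 8 were higher with senescence (29.8% of all tested genes were) and 2, LAMB1 and LAMC1, were lower (28.3%). With siNTRK2, 7 were higher (11.1% of all genes) and 5 were not called, and with siBDNF 9 were higher (10.3%) and 3 were not called. The median log2 fold change of the 12 was 0.35, 0.37 and 0.28 in the 3 comparisons. The summed level of the chains per kb was 272 ± 1.20 CPM per kb in proliferating cells, 259 ± 17.5 in siCtrl senescent cells, 354 ± 2.38 with siNTRK2 and 326 ± 11.7 with siBDNF (mean ± SD, n = 3). All libraries with either siRNA were above all siCtrl libraries, while proliferating and siCtrl senescent libraries overlapped.

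LAMA4 was measured at 148, 149.6 and 147 CPM in proliferating cells, 189.6, 225 and 187 CPM in siCtrl senescent cells, 337, 344 and 338 CPM with siNTRK2 and 310.0, 341 and 304 CPM with siBDNF. Each step from proliferating to siCtrl senescent cells and from there to either siRNA separated all libraries, and the siRNAs overlapped. LAMA4 was higher by 0.44 ± 0.06 in senescent cells, by 0.76 ± 0.06 (SE, adjusted p = 5.8e-10) with siNTRK2 and by 0.67 ± 0.06 (SE, adjusted p = 6.5e-09) with siBDNF. LAMA1, the alpha chain of the early embryo, was measured at 28.1, 27.7 and 25.8 CPM in proliferating cells, 24.9, 29.03 and 24.5 CPM in siCtrl senescent cells, 47.6, 49.5 and 45.99 CPM with siNTRK2 and 30.8, 33.3 and 31.3 CPM with siBDNF. The siNTRK2 libraries were highest, and siBDNF libraries lay between them and both siCtrl groups, which overlapped. LAMA1 was higher by 0.87 ± 0.07 (SE, adjusted p = 6.4e-10) with siNTRK2 and by 0.29 ± 0.07 (SE, adjusted p = 0.0028) with siBDNF, and siNTRK2 exceeded siBDNF by 0.58 ± 0.06 (SE, adjusted p = 3.2e-07). LAMA2, the alpha chain of muscle and nerve basement membranes, was measured at 18.4, 18.2 and 17.9 CPM in proliferating cells, 20.7, 27.6 and 18.7 CPM in siCtrl senescent cells, 30.4, 32.6 and 33.1 CPM with siNTRK2 and 34.4, 37.3 and 33.6 CPM with siBDNF. Both siRNA groups were above all siCtrl libraries, and siCtrl senescent replicate 2 was above the other 2 of its group. LAMA2 was higher by 0.52 ± 0.09 (SE, adjusted p = 1.7e-04) with siNTRK2 and by 0.66 ± 0.09 (SE, adjusted p = 1.1e-05) with siBDNF, and the call in senescent cells (0.30 ± 0.09) was lost without that replicate (0.10, adjusted p = 0.26). LAMA5, an alpha chain of most mature basement membranes, was higher by 0.19 ± 0.06 in senescent cells, 0.35 ± 0.06 with siNTRK2 and 0.25 ± 0.06 with siBDNF, at 44.1 ± 1.89, 50.3 ± 2.98, 64.2 ± 4.07 and 59.95 ± 2.36 CPM in the 4 groups. With the correction for length and GC content, the call for LAMA5 in senescent cells (0.01) and with siBDNF (0.10) was lost, as was the former without proliferating replicate 2 (0.15) or siCtrl senescent replicate 1 (0.15).

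LAMA3 and LAMB3, the laminin chains of epithelia, were both higher in senescent cells. LAMA3 was measured at 0.413, 0.613 and 0.731 CPM in proliferating cells, 3.58, 3.67 and 3.05 CPM in siCtrl senescent cells, 4.25, 3.83 and 3.48 CPM with siNTRK2 and 4.52, 4.20 and 3.84 CPM with siBDNF. LAMB3 was measured at 11.3, 11.8 and 11.96 CPM in proliferating cells, 25.4, 26.9 and 27.1 CPM in siCtrl senescent cells, 31.1, 27.1 and 30.5 CPM with siNTRK2 and 41.9, 44.3 and 42.04 CPM with siBDNF. For both genes all senescent libraries were above all proliferating ones, and for LAMB3 the siBDNF libraries were above all others. The log2 difference of senescent to proliferating cells was 2.58 ± 0.19 (SE, adjusted p = 1.0e-11) for LAMA3 and 1.18 ± 0.07 (SE, adjusted p = 9.0e-14) for LAMB3. With siBDNF, LAMB3 was higher by 0.69 ± 0.06 (SE, adjusted p = 1.4e-08), while LAMA3 (0.28 ± 0.15) was not called. With siNTRK2, neither was called, with values of 0.17 ± 0.15 and 0.16 ± 0.06. The direct difference of siNTRK2 to siBDNF was -0.53 ± 0.06 (SE, adjusted p = 6.5e-07) for LAMB3. Per kb, LAMB3 was 10.6 ± 0.331 CPM in siBDNF cells, well above LAMA3 (0.393 ± 0.0317), so that these chains were not at equal mRNA levels. ITGB6 and ITGB4, beta chains of epithelial integrins, were higher in senescent cells as well. ITGB6 was at 0.0538, 0.114 and 0.0812 CPM in proliferating and 0.303, 0.482 and 0.467 CPM in siCtrl senescent libraries (2.27 ± 0.51). ITGB6 passed the low-count filter through the senescent groups, so no p-value is given for this difference. ITGB4 was at 0.359, 0.171 and 0.298 CPM and 0.641, 0.844 and 0.45 CPM (1.25 ± 0.39), a call lost without proliferating replicate 2 (0.94) or siCtrl senescent replicate 2 (0.99). ITGB4 also passed the low-count filter only with libraries of the senescent groups, so no p-value is given for it. The summed level of 5 epithelial markers was 0.893 to 1.13 CPM in proliferating, 3.60 to 4.47 CPM in siCtrl senescent, 3.15 to 4.30 CPM in siNTRK2 and 5.01 to 5.98 CPM in siBDNF cells. CDH1, KRT5 and KRT14 were at no more than 3 counts in every proliferating library. CLDN4 made up most of the sum, at 3.33, 2.58 and 3.50 CPM in siCtrl senescent cells. Of the 3 tested, CDH1 and CLDN4 were called higher in senescent cells (29.8% of all tested genes were) and EPCAM was not called. CDH1 passed the filter through the senescent groups. None of the 3 was called with either siRNA against siCtrl. The sum rose like LAMB3 from proliferating to siCtrl senescent to siBDNF cells, but with siNTRK2 it overlapped with siCtrl senescent cells. The part of these markers in the result was not tested.

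**Figure D3:**
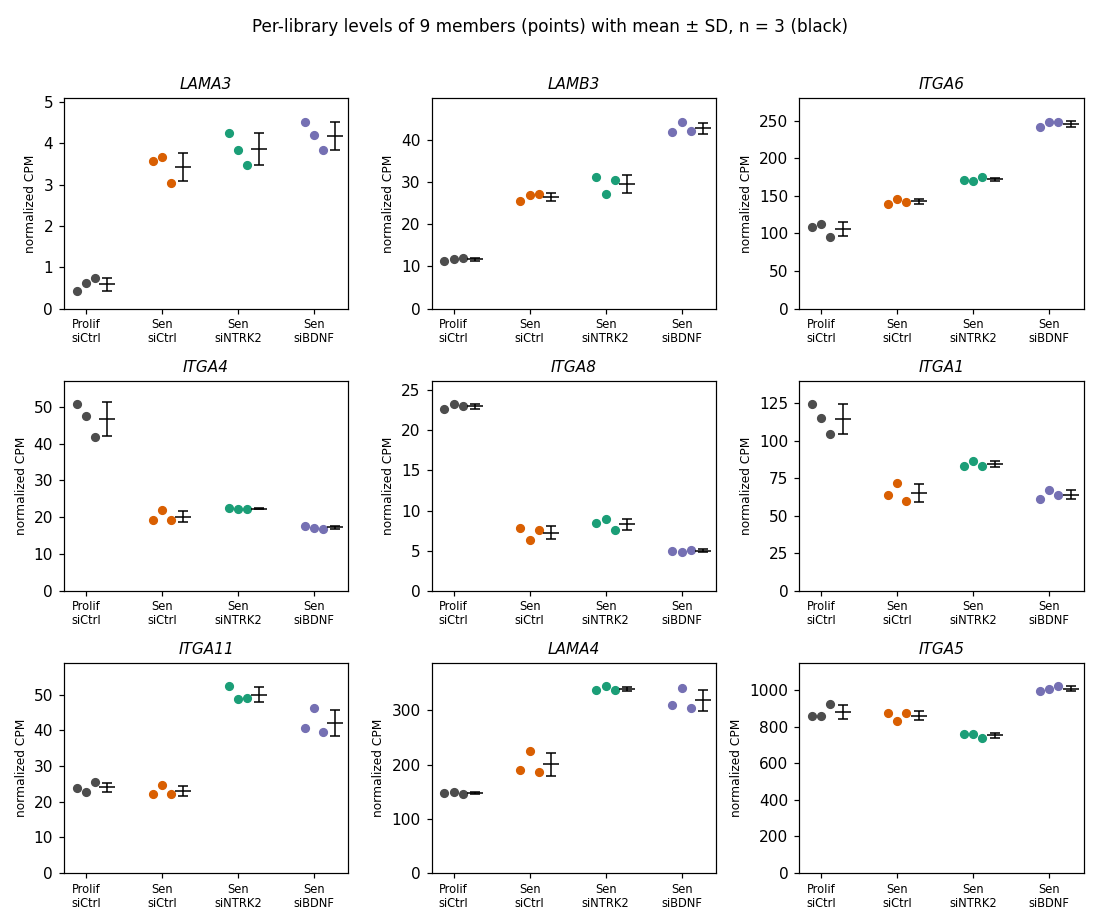
Normalized CPM of LAMA3, LAMB3, ITGA6, ITGA4, ITGA8, ITGA1, ITGA11, LAMA4 and ITGA5 in each library (points, by group), with the mean ± SD of the 3 libraries in black and each axis starting at 0. LAMA3, LAMB3 and ITGA6 are lowest in proliferating cells, ITGA4, ITGA8 and ITGA1 are highest there, ITGA11 and LAMA4 are highest with the siRNAs, and the siNTRK2 and siBDNF points of ITGA5 lie on opposite sides of siCtrl.

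Of the other beta and gamma chains, LAMB1 and LAMC1 are those found in most laminins. LAMB1 was measured at 450.5, 457 and 456 CPM in proliferating cells, 373, 406 and 362 CPM in siCtrl senescent cells, 539.6, 547 and 534 CPM with siNTRK2 and 447, 481 and 444 CPM with siBDNF. Proliferating libraries were above all siCtrl senescent libraries, siNTRK2 was highest, and siBDNF overlapped with proliferating cells. LAMB1 fell by 0.26 ± 0.05 in senescent cells, was higher by 0.50 ± 0.05 (SE, adjusted p = 1.4e-08) with siNTRK2 and by 0.26 ± 0.05 with siBDNF, and siNTRK2 exceeded siBDNF by 0.24 ± 0.05. LAMC1 was measured at 969.7, 985 and 986 CPM in proliferating cells, 755, 838 and 749.8 CPM in siCtrl senescent cells, 1009, 1029 and 1000 CPM with siNTRK2 and 925, 965 and 944 CPM with siBDNF. The siCtrl senescent libraries were below all others. LAMC1 fell by 0.33 ± 0.04 in senescent cells and was higher by 0.38 ± 0.04 (SE, adjusted p = 7.1e-07) with siNTRK2 and by 0.27 ± 0.04 with siBDNF, and the difference between the siRNAs (0.10 ± 0.04) was not called. LAMB2, which replaces LAMB1 in the laminins of synapse and glomerulus, was higher in senescent cells by 0.41 ± 0.05, where LAMB1 and LAMC1 were lower, and like them higher with the siRNAs, by 0.36 ± 0.05 (SE, adjusted p = 1.5e-05) with siNTRK2 and 0.27 ± 0.05 with siBDNF. Its level was 203 ± 4.34, 270.0 ± 20.4, 347 ± 18.3 and 325 ± 13.4 CPM in the 4 groups. LAMC3 was at 0.0718, 0.0855 and 0.108 CPM in proliferating and 0.356, 0.224 and 0.294 CPM in siCtrl senescent libraries (1.72 ± 0.53), close to the detection limit. LAMC3 passed the low-count filter through the senescent groups, so no p-value is given for this difference. LAMB4 stayed between 0.463 and 1.21 CPM and was not called.

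Genes that work with these chains were counted from lists given by role. Of 25 genes for integrin adaptors and other focal adhesion proteins, 14 were lower and 6 higher in senescent cells, where 28.3% and 29.8% of all tested genes were (39.5% and 31.9% of those over 10 CPM), with a median of -0.19. The largest changes were in TNS2 (-1.16 ± 0.06), FERMT2, which encodes the integrin activator kindlin-2 (-1.004 ± 0.05), FLNA (-0.91 ± 0.05) and TNS3 (-0.74 ± 0.04). The 6 that were higher were CRK, ITGB1BP1, PTK2, PXN, SHARPIN and TNS1, of which PTK2 encodes focal adhesion kinase and ITGB1BP1 and SHARPIN encode inhibitors of integrin activation. With siNTRK2, 6 were higher, among them FERMT2 (0.40 ± 0.05), FLNA (0.31 ± 0.05) and VCL, which encodes vinculin (0.26 ± 0.04), and 2 were lower, against 18.3% and 17.1% of genes over 10 CPM. With siBDNF, 5 were higher and 5 lower, shares close to the 17.4% and 18.7% of genes over 10 CPM, and the median was 0.03.

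Of 11 basement membrane partners of laminin, 7 were lower (28.3% of all genes, 39.5% over 10 CPM) and 2 higher (29.8% and 31.9%) in senescent cells, with a median of -0.44. FBLN1 (-1.71 ± 0.05), NID1, the linker of laminin to type IV collagen (-1.39 ± 0.05), NTN4 (-1.03 ± 0.06) and COL4A1 (-0.93 ± 0.05) changed most. With siNTRK2, 9 were higher (11.1% of all genes, 18.3% over 10 CPM) and the other 2 were not called, with a median of 0.59, led by COL4A2 (0.91 ± 0.06), COL18A1 (0.86 ± 0.07), COL4A1 (0.82 ± 0.05) and COL4A5 (0.64 ± 0.05). With siBDNF, 8 were higher (10.3% of all genes, 17.4% over 10 CPM) and 2 lower (10.2% and 18.7%), with a median of 0.20, led by HSPG2, which encodes perlecan (0.74 ± 0.07), and AGRN (0.55 ± 0.07). Between the siRNAs, 8 were higher with siNTRK2 (8.84% of all genes, 14.4% over 10 CPM), COL4A2 most (0.70 ± 0.06), and the other 3 were not called.

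The shares of all genes given for the basement membrane partners in each comparison apply to the lists that follow. Of 14 tested ligands other than collagen, 8 were lower and 5 higher in senescent cells. SPP1, which encodes osteopontin, was higher by 3.27 ± 0.14, while VCAM1, the ligand of the ITGA4 product, fell by 2.04 ± 0.09. With siNTRK2, 7 were higher, FN1 by 0.53 ± 0.06, and ICAM1, the ligand of the ITGAL product, was the 1 that was lower (-0.93 ± 0.05), where 10.0% of all genes and 17.1% over 10 CPM were lower. With siBDNF, 4 were higher and 4 lower, among them SPP1 (1.10 ± 0.10), FN1 (0.44 ± 0.06) and VCAM1 (-1.17 ± 0.10). Of 7 laminin receptors other than integrins, 6 were lower in senescent cells, with BCAM at -0.68 ± 0.08, and DAG1, which encodes dystroglycan, was higher by 0.51 ± 0.05. With siNTRK2 and with siBDNF, 1 of the 7 was higher and 2 were lower, which is close to the shares of genes over 10 CPM and no result about these receptors. Of 7 tetraspanins that associate with integrins, 6 were higher in senescent cells, among them CD9 (0.85 ± 0.05) and CD82 (0.81 ± 0.05), and CD37 was lower. CD53 is among the 6 with 0 counts in each proliferating library and 0, 7 and 4 in siCtrl senescent libraries, so no fold is given, and its call was lost without single libraries (adjusted p = 0.053 to 0.12). CD53 passed the low-count filter through the senescent groups, so its call is not independent of the filter. Of the tetraspanins, 4 were lower with siNTRK2, with CD9 at -0.35 ± 0.05, and 2 with siBDNF, and the others were not called.

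**Figure D4:**
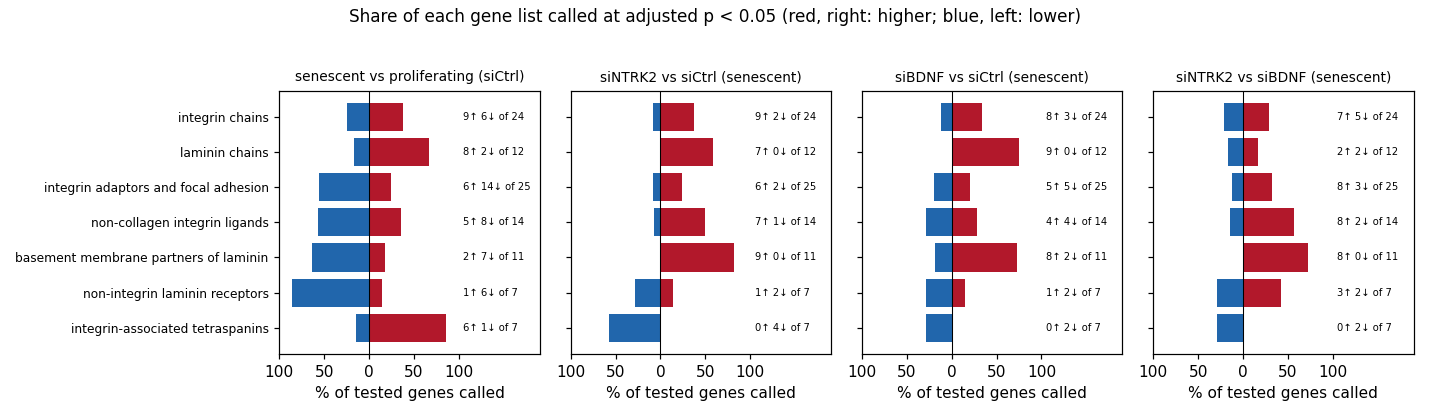
Share of the tested genes of each list that were called higher (red, right) or lower (blue, left) in each comparison, with the counts beside the bars. Laminin chains and their basement membrane partners have most of their called genes on the right with both siRNAs, and in senescent against proliferating cells the laminin chains lie mostly on the right (8 of 12) and their partners mostly on the left (7 of 11).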

How the data were processed

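Bulk poly(A) RNA from 12 WI-38 libraries was sequenced as paired ends by the authors from a stranded kit. Per the labels and the study's methods, adapters were trimmed with Cutadapt, reads were aligned to hg19 with STAR 2.4.0j and counted per gene with featureCounts 1.6.4 (bcl2fastq 2.20.0.422 made the reads). The deposited values are raw counts, 1 file per library, without normalization. Whether counting used the strand is not given in the sources used here, so counts of overlapping genes are uncertain. Symbols were paired with 55538 of 57773 gene identifiers, and no file held rows other than genes.

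Counts were analysed here in R 4.3.3 with edgeR 4.0.16 (TMM scaling, filterByExpr over the 4 groups, a quasi-likelihood fit with 1 term per group to all 12 libraries, Benjamini-Hochberg adjustment over 21518 genes). A gene was called at an adjusted p under 0.05. The count past 1 on the log2 scale, the threshold of the study, is given beside it. The SE was obtained from each fold change and its F statistic. DESeq2 1.42.0, which the study used, was an alternative. The model was tested on simulated counts. Full statistics were given to up to 12 called members per comparison, those with the largest fold change, and each list was named by up to 4 genes of largest change. For ITGAL, ITGB2, ITGB4, ITGB6 and LAMC3 no p-value was given in senescent against proliferating cells. CPM per kb uses the canonical transcript of each gene in the GENCODE annotation lifted to hg19, or the longest where none is marked. Totals of 31567912 to 72328151 counts per library set the precision. Within groups, no pair of libraries was as alike as sampling noise would give (chi-square per gene 3.92 to 13.6), so none was counted as a repeat. Alternatives were other scalings and filters, only the groups compared, a replicate block, a correction per library for trends in transcript length and GC content, and each library left out. The members and lists were chosen with earlier results of these data known. Some items are not reported here, while counts and medians over lists include every tested gene.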

Additional observations from a re-analysis of the deposited data

Results flagged for a closer look

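ITGA5 was flagged by a rule that asked for calls in opposite directions with siNTRK2 and siBDNF and a called difference between the siRNAs. Its log2 difference of siNTRK2 to siBDNF was -0.42, with 3 of 3 siNTRK2 libraries below and 3 of 3 siBDNF libraries above all siCtrl senescent libraries. These values restate the calls that the rule used and add no support to them. Groups of 3 libraries were too small for a test of single outlying libraries.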

How the results depend on the processing

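Of 79 called member results, 67 kept their direction and call under every alternative that tested them, 12 lost the call under some, given beside the values of the genes named in the report, and 0 reversed (1 setting at a time, edgeR or DESeq2). A minimum of 10 counts in every library removed ITGAL, ITGB2, ITGB6 and LAMC3, so that their 5 called results have no value there. Requiring a change of more than 1 on the log2 scale as well left 12 members in senescent against proliferating cells, 1 with siNTRK2, 0 with siBDNF (1 at an unadjusted p under 0.05 in edgeR, and 0 at an adjusted p under 0.05 in DESeq2) and 1 for siNTRK2 against siBDNF, which follows from the stricter rule. With single libraries left out, 22 to 25, 18 to 20, 18 to 19 and 13 to 16 members were called in these 4 comparisons, and 1 to 2 were lower with siBDNF in place of 3, with 1 without siBDNF replicate 2.

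Reversed signs were found for uncalled differences near 0 only. With library totals, ITGA1 and ITGA10 with siBDNF were 0.033 and 0.022, and ITGA5 in senescent cells was 0.0041. With at least 10 counts in every library ITGA5 was 8.9e-04. With single libraries left out, the ranges were -0.079 to 0.058 for ITGA1, -0.086 to 0.0095 for ITGA10, -0.075 to 0.094 for ITGA7 and -0.014 to 0.036 for ITGB5 with siBDNF, -0.065 to 0.0014 for ITGA5 and -0.072 to 0.062 for ITGB1 in senescent cells, and -0.10 to 0.049 for ITGAE with siNTRK2. The cause was not tested.

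Replicate numbers did not pair the libraries: same-numbered libraries correlated at a mean r of 0.0155 in their deviations (5 of 18 pairs over 0.1), and 4 of 12 libraries correlated best with their own number. With the replicate number as a block, 25, 18, 20 and 16 members were called, as without it. Members under about 0.5 CPM rest on few counts.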
